A study of Mus musculus with 15 samples.

Results

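The platelet-derived growth factor (PDGF) genes comprised the 4 ligand genes *Pdgfa*, *Pdgfb*, *Pdgfc* and *Pdgfd*, the receptor genes *Pdgfra* and *Pdgfrb*, and the receptor-like gene *Pdgfrl*. These 7 genes were chosen by name from the 53465 genes of the expression table, and all 7 passed the filter on low values. They were followed in 15 RNA sequencing libraries, all from day 15 tumors of the mouse melanoma line B16-F0. The libraries came in groups of 5 from endovascular progenitors (EVP, lineage-negative CD34+ CD31lo VEGFR2lo), transit amplifying cells (TA, CD31int VEGFR2lo) and definitive differentiated endothelial cells (D, CD31hi VEGFR2hi). All hosts were CAG-GFP transgenic mice, and all sorted cells were GFP+. The study as a whole used mice of 8 to 14 weeks and of both sexes, and does not give age or sex per library. The CAG promoter is active in nearly all host cell types, so GFP sets host cells apart from the grafted melanoma cells but does not mark endothelium. The paper's evidence on endothelial origin came from other mice, labeled through the endothelial gene *Cdh5*. Most lineage-negative CD34+ cells in their B16-F0 tumors carried that label. The sources used here do not say whether libraries with the same replicate number share an animal or whether animals were pooled, and p-values measure only the spread between these libraries.

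On GRCm38, *Pdgfa* (ENSMUSG00000025856) lies at chr5:138976014-138997370 on the minus strand and *Pdgfra* (ENSMUSG00000029231) at chr5:75152292-75198215 on the plus strand of the same chromosome. *Pdgfb* (ENSMUSG00000000489) lies at chr15:79995900-80014808 on the minus strand. *Pdgfc* (ENSMUSG00000028019) lies at chr3:81036416-81214040, *Pdgfd* (ENSMUSG00000032006) at chr9:6168584-6378850, *Pdgfrb* (ENSMUSG00000024620) at chr18:61045150-61085061 and *Pdgfrl* (ENSMUSG00000031595) at chr8:40926212-40990785, all on the plus strand. The longest overlap with the exons of an antisense gene was 813 bases, between *Pdgfa* and 6330403L08Rik, which had a mean of 12.2 normalized counts. The sources used here do not state whether counting used the strand, so reads of these antisense pairs cannot be told apart.

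PDGF chains form dimeric growth factors that act on receptor tyrosine kinases. The A and C chains act mainly on the alpha receptor (*Pdgfra*), the D chain mainly on the beta receptor (*Pdgfrb*), and the B chain on both. In growing vessels, endothelial cells are a known source of PDGF-B, which recruits pericytes that carry the beta receptor, while the alpha receptor is best known from fibroblasts and other mesenchymal cells. PDGF-C and PDGF-D are secreted as latent proteins that extracellular proteases must cleave. The *Pdgfrl* product resembles the receptors' extracellular part and has no kinase domain.

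RefSeq promoter sequences (GRCm38.p6) were used for 4 of the 7 genes. *Pdgfra* and *Pdgfc*, a receptor and ligand pair, were both higher in EVP than in D. *Pdgfd* is a ligand whose level did not follow them. The 250 bases before the start are shown for *Pdgfra*, *Pdgfc* and *Pdgfd*. They read 5′ to 3′ on the plus strand from chr5:75152001-75152250 for *Pdgfra*, chr3:81036166-81036415 for *Pdgfc* and chr9:6168236-6168485 for *Pdgfd*. Capitals mark GGAA on either strand, the core bound by ETS factors, and the TATA box letters TATAAA on either strand.
Pdgfra: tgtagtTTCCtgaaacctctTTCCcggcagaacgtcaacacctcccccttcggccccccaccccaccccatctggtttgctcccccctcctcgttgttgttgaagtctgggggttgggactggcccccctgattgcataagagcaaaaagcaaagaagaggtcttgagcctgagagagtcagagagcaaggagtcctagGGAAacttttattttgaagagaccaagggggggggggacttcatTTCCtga
Pdgfc: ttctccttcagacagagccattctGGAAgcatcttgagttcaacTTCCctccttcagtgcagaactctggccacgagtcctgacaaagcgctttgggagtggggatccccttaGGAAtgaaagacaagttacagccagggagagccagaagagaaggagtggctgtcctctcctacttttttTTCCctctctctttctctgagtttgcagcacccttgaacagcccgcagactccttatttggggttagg
Pdgfd: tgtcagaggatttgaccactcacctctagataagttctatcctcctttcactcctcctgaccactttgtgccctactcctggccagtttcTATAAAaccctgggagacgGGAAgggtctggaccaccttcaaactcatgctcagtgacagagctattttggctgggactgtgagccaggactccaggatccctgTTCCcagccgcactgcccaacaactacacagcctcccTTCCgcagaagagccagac
The GGAA core occurred 4 times in *Pdgfra*, 4 times in *Pdgfc* and 3 times in *Pdgfd*, and 93.4% of all 32851 promoter windows of this length held it. TATAAA occurred 1 time in *Pdgfd* and in neither of the other windows shown, and 12.4% of all windows held it. The GC box letters GGGCGG were in none of these windows but in both windows of *Pdgfa*, and in 32.7% of all windows. These matches describe letters and not binding.

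The depth per library was 5394356 to 26513073 reads on genes (median 19049194). Libraries differed in a background over genes that these cells should not use: 2.70 to 96.2% of 1406 olfactory receptor genes had a read, at most 4.55% in replicates 4 and 5 and 51.7% or more in EVP replicates 1 and 2, TA replicates 1 to 3 and D replicate 1. *Pecam1* and *Kdr*, which encode the sorted proteins CD31 and VEGFR2, had means of 260 and 412 normalized counts in EVP, 6242 and 4200 in TA, and 24244 and 19832 in D. Summed over 12 endothelial markers, EVP libraries held 2429 to 4557 normalized counts, TA libraries 6175 to 79337 and D libraries 110813 to 175922. Of these 12, 11 were higher in D than in EVP (limma, adjusted p under 0.05). The exception was *Tek* (adjusted p = 0.322 in limma), which made up a large part of the EVP sums. Its EVP mean of 1578 lay above its TA mean of 583, while D libraries averaged 2379. Summed over 12 fibroblast markers, the ranges were 903862 to 1604070 in EVP, 207186 to 650416 in TA and 2037 to 5806 in D. None of these markers was at 0 throughout a population. The fibroblast markers, none of which is a PDGF gene, were higher in EVP and TA than in D, as were the PDGF receptors described next, and their part in the PDGF results was not tested. In such bulk samples, fewer cells of a type and less RNA per cell cannot be told apart.

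**Figure D1:**
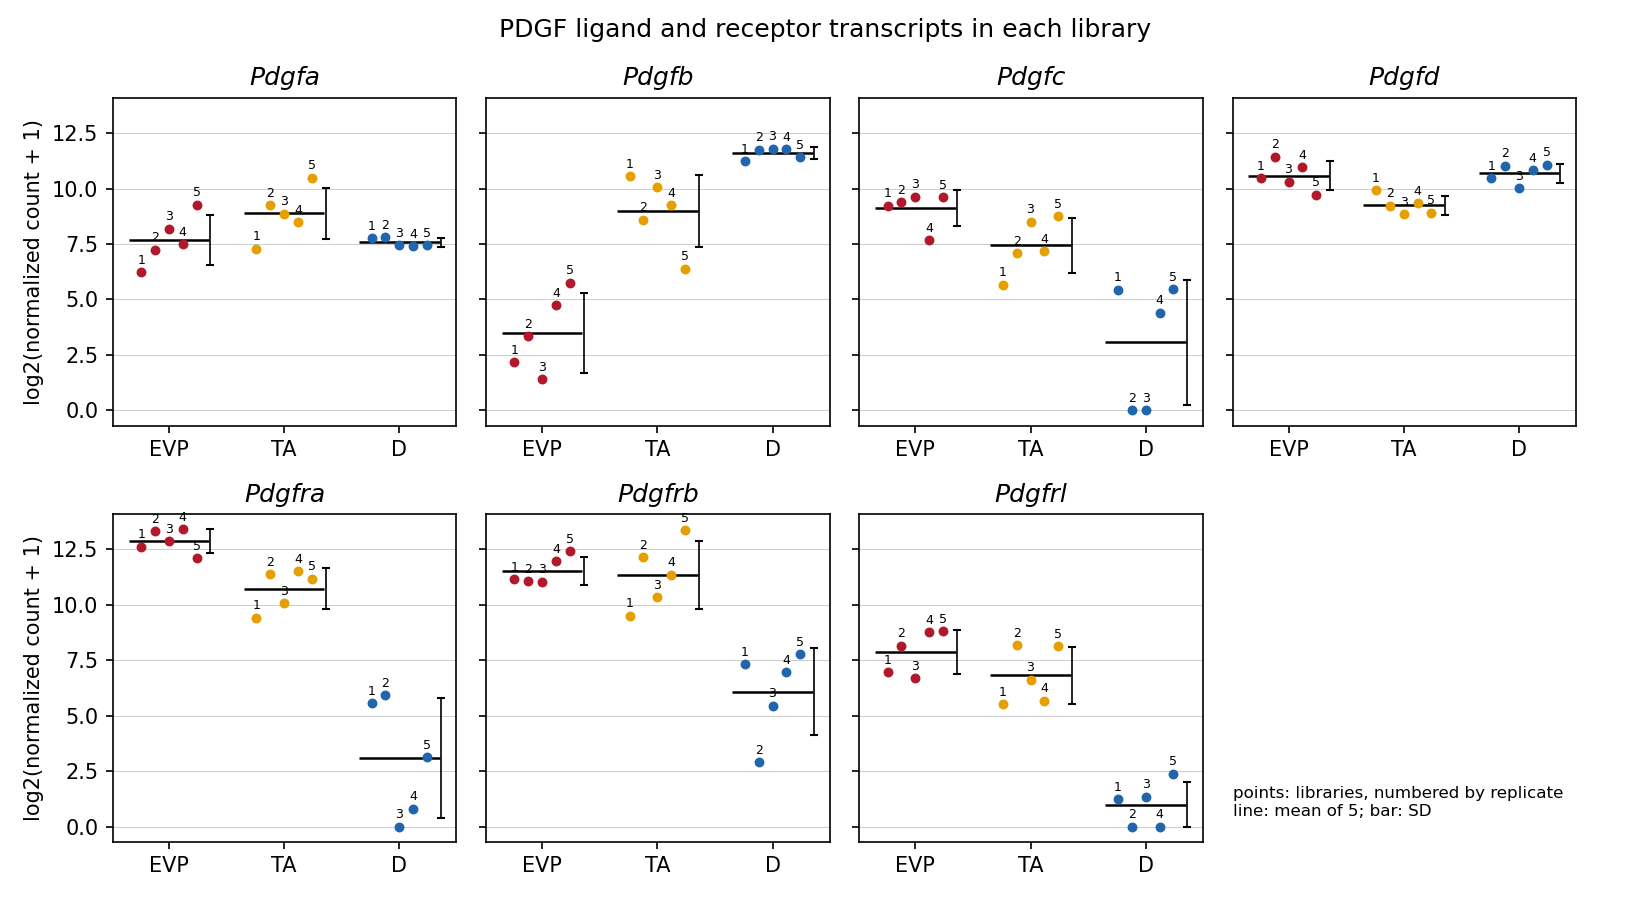
Log2(normalized count + 1) of each PDGF gene (y axis) in the 5 libraries of EVP, TA and D (x axis), with points numbered by replicate, lines for means and bars for SD. All D libraries lie above all EVP libraries for *Pdgfb* and below them for *Pdgfc*, *Pdgfra*, *Pdgfrb* and *Pdgfrl*.

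The PDGF receptor transcripts were high in EVP and TA and low in D, while *Pdgfb* was high in D. Between EVP and D, 5 of the 7 genes passed the threshold (limma, Benjamini-Hochberg adjusted p under 0.05). *Pdgfc*, *Pdgfra*, *Pdgfrb* and *Pdgfrl* were higher in EVP, as were 11.6% of the 25549 genes tested, and *Pdgfb* was higher in D, as were 7.46%. The libraries of EVP and D did not overlap for any of these 5 genes. Over all genes tested, libraries did not overlap with EVP higher for 10.2% and with D higher for 7.52%. The median log2 fold change from D to EVP was 5.45 over the PDGF genes and 0.46 over all genes tested. Of all calls between EVP and D, 60.8% were higher in EVP, and 49.2% with quantile normalization. Of those between EVP and TA, 44.6% were higher in EVP, and 25.1% with equal totals. Between TA and D, 6 of the 7 genes passed: *Pdgfc*, *Pdgfra*, *Pdgfrb* and *Pdgfrl* were higher in TA (8.21% of all genes), and *Pdgfb* and *Pdgfd* were higher in D (4.31%). These 6 genes also had no overlap between TA and D libraries, which held for 5.56% of all genes in the direction of TA and for 3.69% in the direction of D. Between EVP and TA, *Pdgfd* was higher in EVP (1.56% of all genes) and *Pdgfb* higher in TA (1.94%), and the other 5 did not pass. *Pdgfra* libraries did not overlap with EVP higher (2.7% of all genes), and *Pdgfb* libraries did not overlap with TA higher (1.59%). Each population serves in a pair of these comparisons, so the comparisons share libraries.

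**Figure D2:**
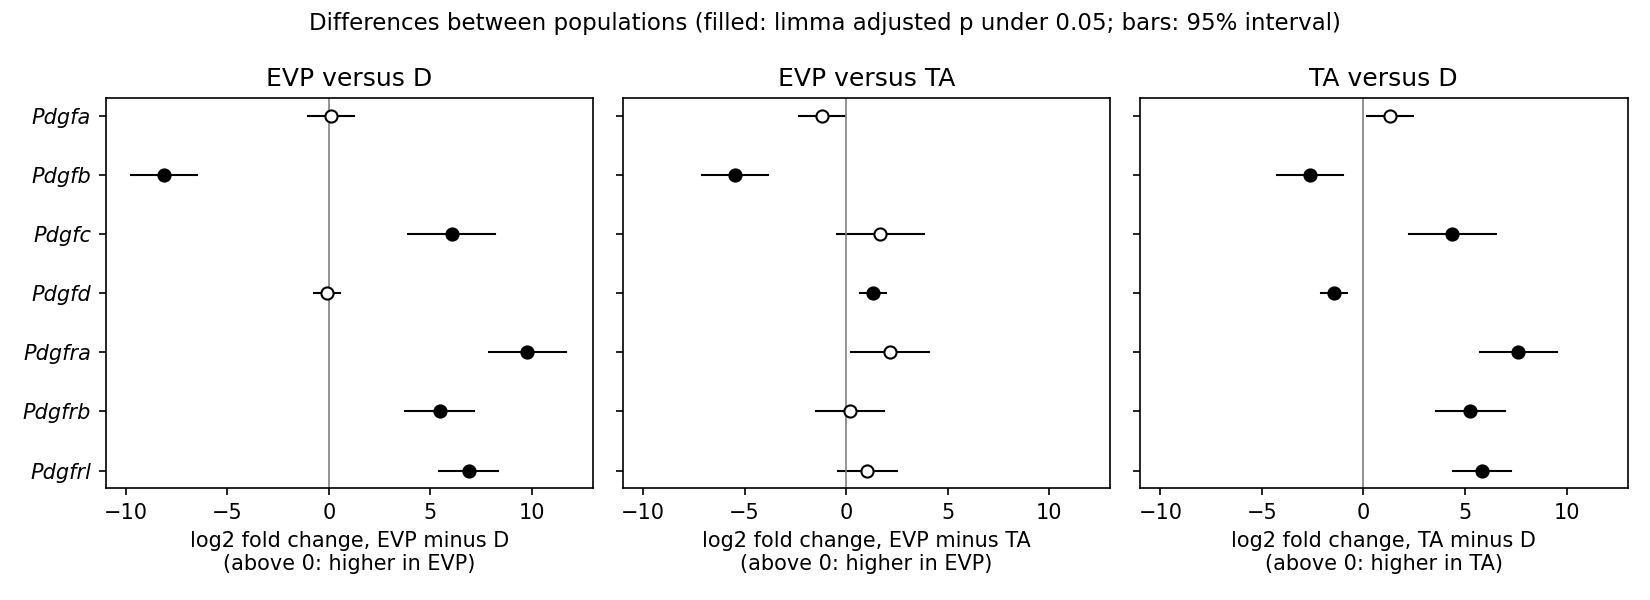
Log2 fold change of each PDGF gene (x axis) in the comparisons of EVP with D, EVP with TA and TA with D, with 95% intervals as bars and filled points where limma's adjusted p is under 0.05. *Pdgfb* lies below 0 in each comparison, while *Pdgfra*, *Pdgfrb* and *Pdgfrl* lie far above 0 against D and nearer to 0 between EVP and TA.

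Among the ligands, *Pdgfb* had the largest fold difference in both comparisons with EVP, while *Pdgfc* had it between TA and D. *Pdgfb* encodes the B chain, which binds both receptors, and its values follow. The EVP libraries (replicates 1 to 5) had 3.51, 9.14, 1.64, 25.6 and 53.2 normalized counts. The TA libraries had 1508, 385, 1058, 614 and 82.8. The D libraries had 2407, 3450, 3560, 3500 and 2728. The populations followed in order with no overlap, with the widest spread in TA, and EVP replicates 1 and 3 rested on 1 and 2 reads. *Pdgfb* was 168-fold higher in D than in EVP (log2 fold change -8.11 ± 0.77 SE for EVP minus D, adjusted p = 5.42e-07 in limma). It was 39.2-fold higher in TA than in EVP (-5.49 ± 0.77, adjusted p = 0.00168 in limma). It was 4.29-fold higher in D than in TA (-2.62 ± 0.77, adjusted p = 0.0314 in limma). The last call was lost when TA replicate 2 or 5 or any of D replicates 2 to 5 was left out, with log2 fold changes from -2.67 to -1.98 and adjusted p from 0.0584 to 0.0785, and in 11 of all 30 alternatives. The call between EVP and TA was lost without replicate 1 of each population (-4.77, adjusted p = 0.0562 in limma) and in replicates 4 and 5 alone (-2.58, adjusted p = 0.641).

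*Pdgfc* had the opposite order. This chain forms a ligand of the alpha receptor after cleavage. The EVP libraries had 600, 670, 796, 203 and 788 normalized counts, the TA libraries 50.0, 134, 362, 143 and 431, and the D libraries 42.6, 0, 0, 20.3 and 43.5. EVP and TA overlapped, and both lay above every D library. *Pdgfc* was 28.7-fold higher in EVP than in D (log2 fold change 6.04 ± 1.01 SE, adjusted p = 2.48e-04 in limma) and 10.5-fold higher in TA than in D (4.37 ± 1.01, adjusted p = 0.00739). Between EVP and TA the log2 fold change of 1.68 had a 95% interval from -0.46 to 3.82 (adjusted p = 0.492 in limma). The call between TA and D was lost after subtraction of the background over olfactory receptor genes (3.86, adjusted p = 0.104). Per kb of exon, *Pdgfc* in TA replicate 1 had 9.82 normalized counts beside a background of 9.64 in that library.

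*Pdgfd*, whose product acts on the beta receptor after cleavage, was at like levels in EVP and D and lower in TA. The EVP libraries had 1415, 2760, 1266, 1988 and 844 normalized counts. The TA libraries had 972, 597, 458, 650 and 480, and the D libraries 1410, 2087, 1032, 1816 and 2157. All TA libraries lay below all D libraries, while the first TA library lay above the fifth EVP library. *Pdgfd* was 2.69-fold higher in D than in TA (log2 fold change -1.43 ± 0.30 SE for TA minus D, adjusted p = 0.00374 in limma) and 2.62-fold higher in EVP than in TA (1.33 ± 0.30, adjusted p = 0.0201). Between EVP and D the difference was -0.10 with a 95% interval from -0.74 to 0.53 (adjusted p = 0.865 in limma). The call between EVP and TA was lost without EVP replicate 2 (1.11, adjusted p = 0.0668), EVP replicate 4 (1.23, 0.0558) or TA replicate 3 (1.23, 0.0578), and without replicate 1 of each population (1.52, 0.0743).

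*Pdgfa* passed in no comparison. It encodes the A chain, a ligand of the alpha receptor that needs no cleavage outside the cell. The EVP libraries had 73.7, 150, 292, 180 and 617 normalized counts, the TA libraries 155, 611, 464, 357 and 1435, and the D libraries 214, 224, 175, 168 and 175. D libraries were close together, whereas EVP and TA libraries spread widely and the fifth library was the highest of each. The log2 fold change was 1.30 for TA minus D (95% interval 0.17 to 2.42, adjusted p = 0.138 in limma), -1.19 for EVP minus TA (-2.31 to -0.07, adjusted p = 0.287) and 0.11 for EVP minus D (-1.02 to 1.23, adjusted p = 0.919). The difference between TA and D passed without TA replicate 1 (1.70, adjusted p = 0.0307), with array weights (1.74, 0.0142), with DESeq2 on whole reads (1.66, 0.0189) and without replicate 1 of each population (1.74, 0.0330). In EVP replicate 1, *Pdgfa* had 23.6 normalized counts per kb, under the background of 42.6 in that library. This background is a mean over olfactory receptor genes and not a floor for every gene. *Pdgfb* had 0.844 normalized counts per kb in the same library.

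*Pdgfra*, the alpha receptor gene, was high in EVP, lower in TA and near 0 in D. The EVP libraries had 6313, 10220, 7463, 10872 and 4368 normalized counts. The TA libraries had 681, 2665, 1074, 2933 and 2320, and the D libraries 46.7, 59.6, 0, 0.751 and 7.86. The populations did not overlap. *Pdgfra* was 342-fold higher in EVP than in D (log2 fold change 9.77 ± 0.90 SE, adjusted p = 4.08e-07 in limma) and 84.2-fold higher in TA than in D (7.62 ± 0.90, adjusted p = 1.77e-05). *Pdgfra* was 4.06-fold higher in EVP than in TA, and this difference did not pass (2.15 ± 0.90, adjusted p = 0.244 in limma). It passed with a pseudocount of 8 (2.14, adjusted p = 0.0414) and in a fit of EVP and TA alone (2.15, adjusted p = 0.0182). In D replicate 1, *Pdgfra* had 4.66 normalized counts per kb beside a background of 6.85.

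*Pdgfrb*, the beta receptor gene, was high in both EVP and TA. The EVP libraries had 2300, 2162, 2097, 3996 and 5492 normalized counts, the TA libraries 727, 4548, 1289, 2627 and 10618, and the D libraries 159, 6.53, 43.0, 123 and 218. EVP lay within the wider range of TA, and every D library lay below both. *Pdgfrb* was 29.2-fold higher in EVP than in D (log2 fold change 5.45 ± 0.80 SE, adjusted p = 6.28e-05 in limma) and also higher in TA than in D (5.26 ± 0.80, adjusted p = 2.41e-04). Between EVP and TA the difference was 0.19 with a 95% interval from -1.50 to 1.87 (adjusted p = 0.984 in limma), and its sign turned in 8 of 30 alternatives. The means ran the other way, with 1.23 times as many normalized counts in TA as in EVP.

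*Pdgfrl* had the lowest mean per kb of the receptor group in each population. The EVP libraries had 123, 285, 102, 430 and 451 normalized counts, the TA libraries 44.8, 287, 98.2, 50.1 and 283, and the D libraries 1.37, 0, 1.56, 0 and 4.23, which were 7 reads or fewer. D lay below both other populations, which overlapped each other. *Pdgfrl* was 194-fold higher in EVP than in D (log2 fold change 6.88 ± 0.68 SE, adjusted p = 9.17e-07 in limma) and 106-fold higher in TA than in D (5.83 ± 0.68, adjusted p = 1.61e-05). The difference of 1.05 between EVP and TA had a 95% interval from -0.40 to 2.49 (adjusted p = 0.543 in limma). In EVP replicate 1 its 39.3 normalized counts per kb were under the background of 42.6.

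To compare ligands with receptors, levels were divided by exon length and are given as mean normalized counts per kb ± SD (n = 5). Exon length here merges all annotated exons of a gene, which gave 10024 bases for *Pdgfra*, 5478 for *Pdgfrb* and 3119 for *Pdgfa*. The transcripts expressed can be shorter, and no other length was tried, so orders, shares and ratios between genes depend on this choice. In EVP the order was *Pdgfra* (783 ± 270), *Pdgfrb* (586 ± 274), *Pdgfd* (525 ± 235), *Pdgfc* (120 ± 47.7), *Pdgfrl* (89.0 ± 52.6), *Pdgfa* (84.2 ± 68.4) and *Pdgfb* (4.48 ± 5.17). The ranges over libraries of the first 3 overlapped, the lowest *Pdgfd* library (268) lay above the highest *Pdgfc* library (156), the next 3 overlapped, and *Pdgfb* (at most 12.8) lay below the lowest *Pdgfa* library (23.6). In D the order was *Pdgfb* (752 ± 127), *Pdgfd* (539 ± 151), *Pdgfa* (61.3 ± 8.35), *Pdgfrb* (20.1 ± 15.6), *Pdgfc* (4.18 ± 4.23), *Pdgfra* (2.29 ± 2.80) and *Pdgfrl* (0.459 ± 0.553). *Pdgfb* and *Pdgfd* overlapped, *Pdgfa* stood apart from its neighbors on both sides, and the ranges of each pair of neighbors from *Pdgfrb* down overlapped. In TA the order by mean was *Pdgfrb* (723 ± 730), *Pdgfd* (200 ± 65.5), *Pdgfa* (194 ± 158), *Pdgfra* (193 ± 99.7), *Pdgfb* (175 ± 135), *Pdgfrl* (48.8 ± 39.2) and *Pdgfc* (44.0 ± 32.1), and every pair of neighbors overlapped.

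The mix of ligand transcripts differed between the populations. *Pdgfb* made up 46.7 to 69.1% of the summed ligand transcripts per kb in D, 2.78 to 49.6% in TA and 0.0603 to 2.02% in EVP. In EVP, *Pdgfd* was the largest ligand share in every library, with 42.3 to 85.9%, beside *Pdgfc* with 5.43 to 24.4% and *Pdgfa* with at most 31.3% (median 7.85%). *Pdgfc* was at most 0.759% of the ligand transcripts in D. In TA, *Pdgfa* ranged from 6.81 to 64.2% and *Pdgfd* from 21.2 to 42.2%, so no ligand led in all TA libraries. The alpha receptor made up 30.3 to 72.1% of the *Pdgfra* and *Pdgfrb* transcripts per kb in EVP and 10.7 to 37.9% in TA. In EVP it was 30.3% in replicate 5 and 59.8 to 72.1% in the other libraries.

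Summed over the ligands, libraries held 591 to 1057 normalized counts per kb in EVP, 497 to 730 in TA and 1102 to 1563 in D. Summed over *Pdgfra* and *Pdgfrb*, they held 1050 to 1814 in EVP, 201 to 2170 in TA and 7.14 to 40.5 in D. The ratio of ligand to receptor transcripts was 0.405 to 0.748 in EVP and 32.7 to 219 in D. The D libraries thus held ligand transcripts with few receptor transcripts, and the EVP libraries held both with more of the receptors. Bulk libraries do not show whether the same cells carry both. In TA the ratio ranged from 0.330 to 3.64 and was above 1 in replicates 1 and 3. The ligand sum in D was mostly *Pdgfb* and *Pdgfd*, whose products can act on the beta receptor. These are transcript levels, and neither secretion nor receptor activity was measured.

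**Figure D3:**
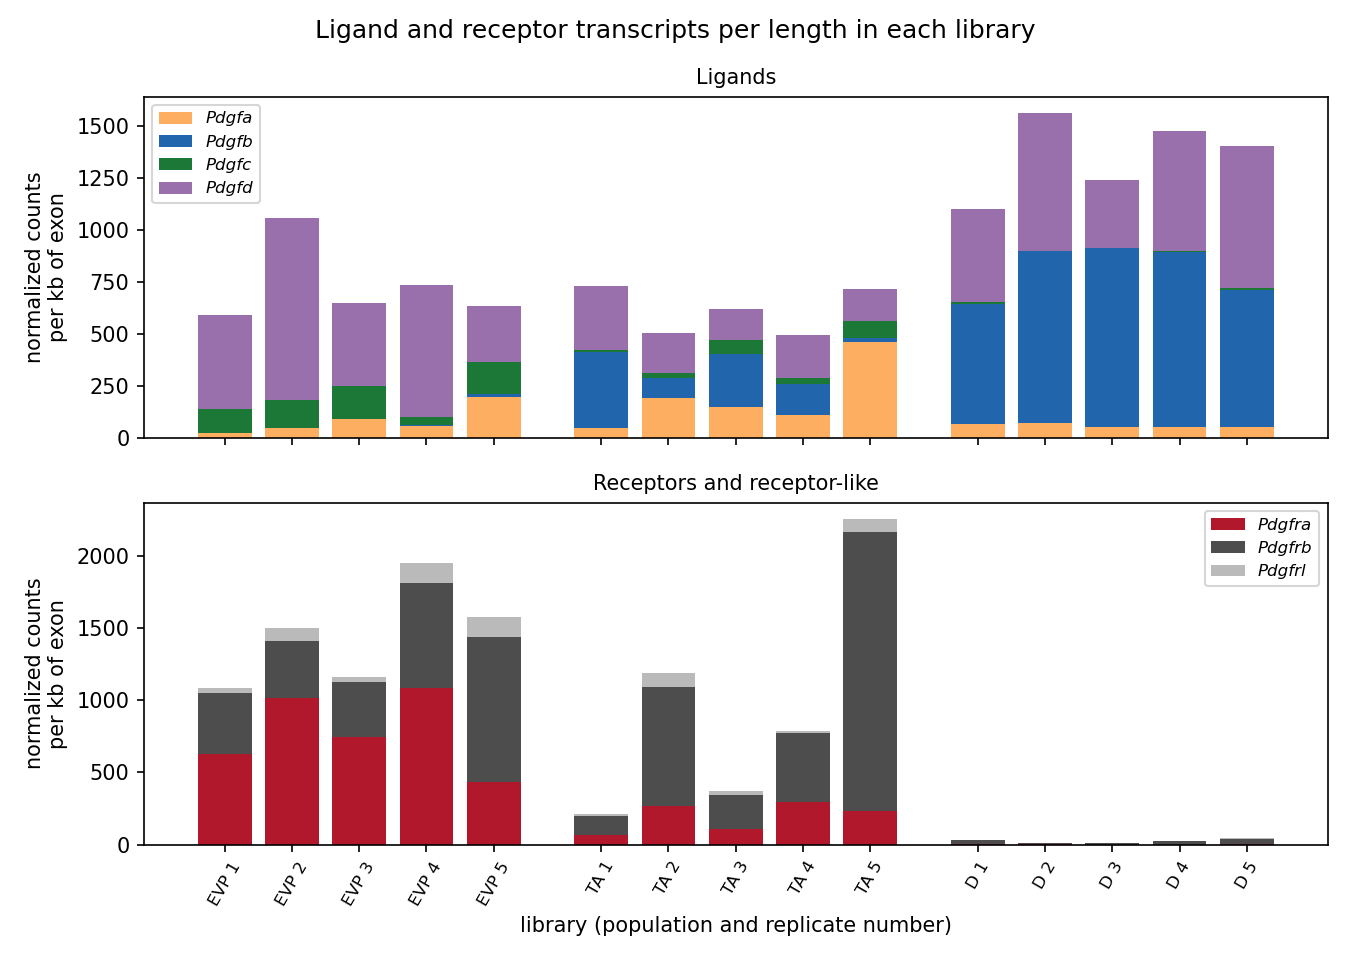
Normalized counts per kb of exon (y axis) stacked by gene for ligands (top) and receptors (bottom) in each of the 15 libraries (x axis). Ligand sums are 1102 to 1563 in D, where *Pdgfb* and *Pdgfd* fill nearly the whole bar, while the *Pdgfra* and *Pdgfrb* sums are at most 40.5 in D and at least 1050 in EVP.

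TA libraries differed widely from each other in their PDGF genes. *Pdgfb* was highest in replicate 1, followed by replicates 3, 4, 2 and 5, and *Pdgfrb* had exactly the reverse order. The summed endothelial markers followed the order of *Pdgfb*, with 79337 normalized counts in replicate 1, 39717 in replicate 3, 26876 in replicate 4, 19961 in replicate 2 and 6175 in replicate 5. The 10 mural cell markers, which do not include *Pdgfrb*, summed to 145949 in replicate 5, 37610 in replicate 4, 34285 in replicate 2, 17471 in replicate 3 and 5472 in replicate 1, nearly the order of *Pdgfrb*. Mural cells are pericytes and smooth muscle cells, and *Pdgfrb* is a known pericyte gene. Replicate 5 was also the highest TA library in *Pdgfa* (1435 normalized counts) and the highest EVP library in *Pdgfrb* (5492), *Pdgfa* (617), *Pdgfb* (53.2) and mural markers (28849). In EVP the mural sums of the other libraries were 5205 to 8954, and in D they were 5043 to 10802. Single mural markers differed in both directions between these populations. *Cspg4*, *Acta2* and *Cnn1* passed as higher in EVP (11.6% of all genes), and *Kcnj8* and *Abcc9* as higher in D (7.46%). The share of olfactory receptor genes with a read was 75.9, 51.7, 65.1, 4.13 and 3.70% in TA replicates 1 to 5. The part of the markers and of this background in the spread of the PDGF genes was not tested.

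**Figure D4:**
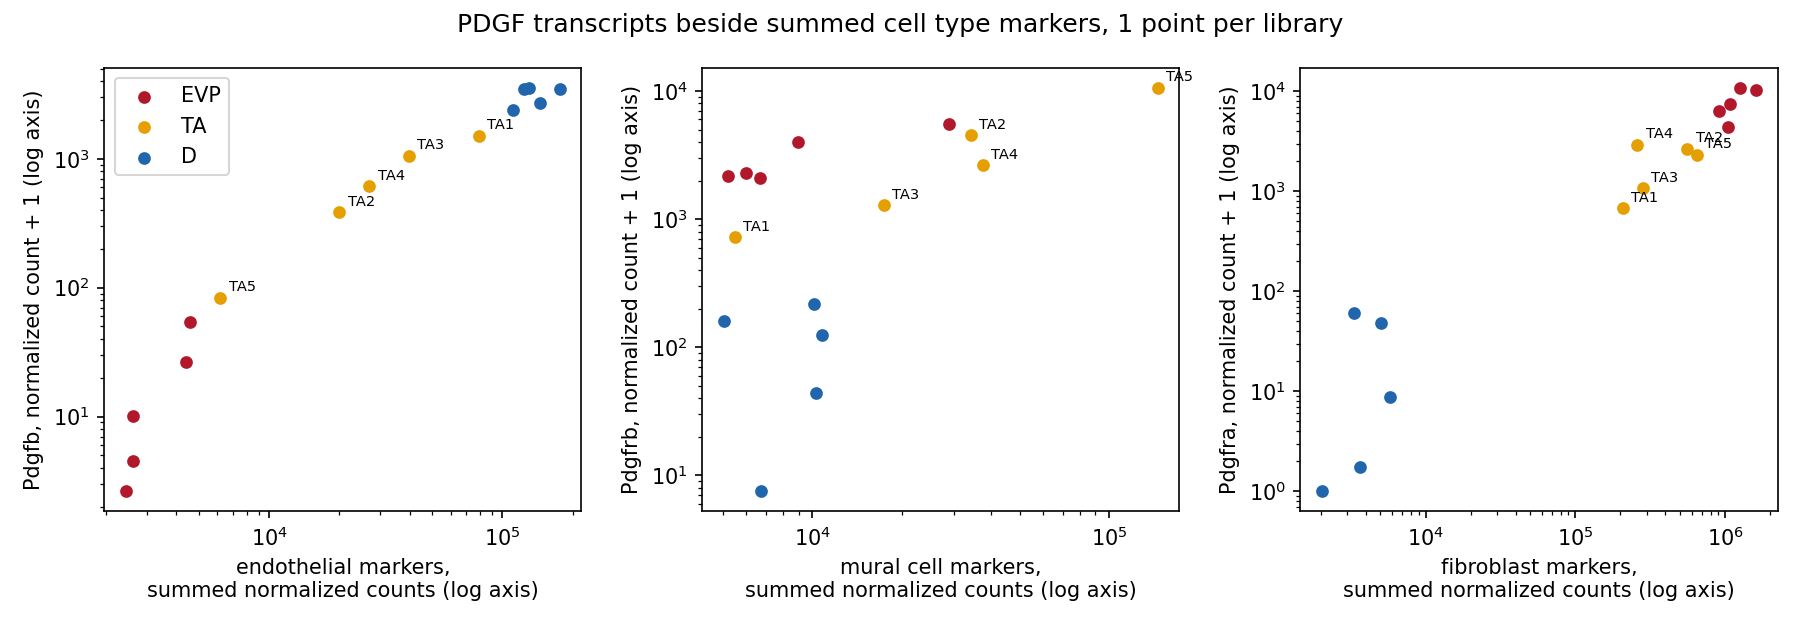
*Pdgfb* beside the summed endothelial markers (left), *Pdgfrb* beside the summed mural cell markers (middle) and *Pdgfra* beside the summed fibroblast markers (right), with 1 point per library, colors for EVP, TA and D, and log axes in normalized counts (y axis with 1 added). TA replicates are numbered and run from TA5 near EVP to TA1 near D in the left panel.

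The other genes of the pathway were taken as lists. Among 7 proteases that process PDGF chains, 4 passed between EVP and D: the convertase genes *Pcsk5* and *Pcsk6* and *Plat*, whose product tissue plasminogen activator cleaves PDGF-C, were higher in EVP (11.6% of all genes), and the convertase gene *Pcsk7* was higher in D (7.46%). *Pcsk5* averaged 5561 ± 1462 normalized counts in EVP against 52.7 ± 34.2 in D (SD, n = 5, log2 fold change 7.03, adjusted p = 1.69e-08 in limma). *Plat* had 15233 ± 2822 in EVP and 3368 ± 775 in D (2.19, adjusted p = 6.52e-06 in limma), and thus was higher in the population with more *Pdgfc*. Between EVP and TA, *Plat* and *Pcsk6* passed and were higher in EVP (1.56% of all genes). This count of 2 fell to 1 with the background subtracted and to 0 in limma without replicate 1 of each population (3 at an unadjusted p under 0.05). Between TA and D, *Pcsk5*, *Plat* and *St14*, which encodes the membrane protease matriptase, were higher in TA (8.21% of all genes) and *Pcsk7* was higher in D (4.31%), and this count of 4 fell to 2 with the background subtracted or in a fit of TA and D alone. The median log2 fold change of the list was 1.28 for EVP minus D, beside 0.46 for all genes.

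Of 7 genes for PDGF-binding proteins and co-receptors, 5 passed between EVP and D, 2 higher in EVP (11.6% of all genes) and 3 higher in D (7.46%). *Lrp1*, an endocytic receptor that associates with the beta receptor, averaged 8347 ± 2386 normalized counts in EVP against 192 ± 42.7 in D (log2 fold change 5.41, adjusted p = 9.09e-11 in limma), and the integrin gene *Itgav* was also higher in EVP (0.74, adjusted p = 0.0136). The co-receptor gene *Nrp1* had 2720 ± 585 in EVP and 11120 ± 3306 in D (-2.0, adjusted p = 1.26e-05 in limma). The integrin gene *Itgb3* (-1.75, adjusted p = 2.44e-04 in limma) and *Hspg2*, which encodes the heparan sulfate proteoglycan perlecan, were higher in D too. Only *Lrp1* passed between EVP and TA, higher in EVP (1.56% of all genes). Between TA and D, *Lrp1* was higher in TA (8.21% of all genes), and *Nrp1*, *Itgb3* and *Hspg2* were higher in D (4.31%). The list median for EVP minus D was -0.35.

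Of 23 genes that carry the signal inside the cell, 11 passed between EVP and D, 4 higher in EVP (11.6% of all genes) and 7 higher in D (7.46%). With the background subtracted, 7 passed. *Src*, a kinase that binds activated receptors, averaged 249 ± 69.7 normalized counts in EVP against 27.8 ± 16.5 in D (log2 fold change 3.27, adjusted p = 2.13e-05 in limma). *Ptprj*, a phosphatase that acts on the beta receptor, had 254 ± 101 in EVP and 37.8 ± 41.4 in D (3.15, adjusted p = 6.32e-04 in limma). *Nck2*, an adaptor (-1.83, adjusted p = 0.00294 in limma), and *Plcg1*, a phospholipase that docks on the receptors (-1.65, adjusted p = 7.37e-06), were higher in D. None of the 23 passed between EVP and TA in limma (4 at an unadjusted p under 0.05) or edgeR, and 6 passed between TA and D, 2 higher in TA (8.21% of all genes) and 4 higher in D (4.31%). Between EVP and TA, DESeq2 called 2 of them and limma with equal totals 1, and between TA and D, limma with array weights called 10. The list median for EVP minus D was -0.30.

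Genes with the pattern most like each PDGF gene were ranked by Pearson's r of log2(normalized count + 1) over the 15 libraries, among genes tested. This is a description, since libraries share their population, depth and background. The levels of *Pdgfb* were most like those of *Angpt2*, a ligand of the Tie2 receptor (r = 0.994), *Ppm1j* (0.991) and *Gpihbp1*, a capillary endothelial protein (0.991). *Pdgfra* was most like *Vegfd*, a lymphatic growth factor (0.992), the metalloproteinase gene *Mmp3* (0.990) and *Islr* (0.989). *Pdgfrl* was most like the matrix genes *Col6a2* (0.979), *Postn* (0.976) and *Col6a1* (0.975), and *Pdgfrb* like *Sept5* (0.973), *Naalad2* (0.968) and *Angptl2* (0.967). *Pdgfc* was most like the transporter genes *Slc1a4* (0.958) and *Abca9* (0.953) and *Fibin* (0.948). *Pdgfd*, low in TA, was most like *Ly6e* (0.938), *Tek*, the Tie2 receptor gene (0.912), and *Npr1* (0.896), and *Pdgfa* like *Dlk1* (0.938), *Tusc5* (0.898) and the connexin gene *Gjc1* (0.889). With Spearman's correlation, 2 of the 3 genes stayed among the first 3 for *Pdgfa* and *Pdgfd*, 1 for *Pdgfb* and 0 for each of the others.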

How the data were processed

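RNA sequencing data of 15 libraries (5 each of EVP, TA and D) were used. The authors prepared libraries with a modified Smart-Seq2 protocol, sequenced 76 base paired-end reads, aligned them with STAR 2.5.3a to GRCm38, counted them per gene (Ensembl 91) with HTSeq-count 0.6.1 and normalized them with DESeq2 1.10.1. The deposited signal values are normalized counts. The authors' comparison tables (fold changes, p-values) were not used. Dividing each library by its smallest value above 0 gave whole reads for 100% of values (tolerance 0.01), on which edgeR 4.0.16 called 4425, 891 and 3045 genes (EVP and D, EVP and TA, TA and D) beside 4859, 893 and 3199 in limma.

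Log2(normalized count + 1) was computed for 25549 genes (mean of 5 normalized counts or more) and fitted in limma 3.58.1 (R 4.3.3; all 15 libraries, 1 coefficient per population, trend, two-sided tests). Genes with a Benjamini-Hochberg adjusted p under 0.05 were called. Folds divide one mean of normalized counts by the other. The log2 fold changes of limma are differences between means of log2 values, so the 2 measures need not match, least where libraries are near 0. Alternatives were edgeR and DESeq2 1.42.0 on whole reads, other pseudocounts, filters and scalings, array weights, fits of only the populations compared, the replicate number as a block, subtraction of the olfactory background, and leaving out libraries. Gene positions are those of the deposited table (GRCm38), and exon lengths came from GENCODE M21, which gave one for 99.6% of genes and places the ends of *Pdgfb* differently. Simulated counts with planted changes were used to test limma, edgeR and DESeq2. They held no background that differed between libraries and no replicate structure, so this test does not cover those features.

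The PDGF genes, lists and tests were chosen with earlier results of these data known. The text names the PDGF genes, of each pathway list the 2 genes with the largest rise and the 2 with the largest fall between EVP and D among those past the threshold, for each PDGF gene the 3 most alike genes, and *Pecam1* and *Kdr*. Other genes of counts of 5 or fewer were named after their values were seen. Of the leukocyte markers, 8 of 9 were used, since 1 shares its symbol with another gene.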

Additional observations from a re-analysis of the deposited data

Results flagged for a closer look

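*Pdgfc* in EVP replicate 4 had 203 normalized counts, far from the other EVP libraries at 600 to 796. The gap to the nearest library was 0.793 of the range of the 5 libraries, above Dixon's critical value of 0.71. The 7 PDGF genes in 3 populations gave 21 such groups of 5, and chance alone marks about 1 in 20. Without this library, *Pdgfc* stayed higher in EVP than in D. EVP replicate 4 was also the EVP library with the most *Pdgfra* (10872 normalized counts).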

How the results depend on the processing

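Of 630 fold changes of PDGF genes recomputed under 30 alternatives, 583 kept their direction and their side of the threshold, 27 lost the call, 6 gained one and 14 changed sign. None of the 14 had passed the threshold. *Pdgfa* between EVP and D became -1.11 with the background subtracted, -0.76 with quantile normalization and -0.000623 with equal totals, and -0.29 to 0.47 when 1 library was left out (-0.29 without EVP replicate 5 and -0.018 without EVP replicate 3). *Pdgfd* between EVP and D ranged from -0.32 to 0.11 when 1 library was left out (0.11 without EVP replicate 5). *Pdgfrb* between EVP and TA became -0.30 in DESeq2, -0.34 in edgeR, -0.20 with array weights, -0.17 in replicates 4 and 5 alone, -0.18 without replicate 1 of each population, and -0.27 to 0.70 when 1 library was left out (-0.27 without TA replicate 1, -0.065 without TA replicate 3 and -0.034 without EVP replicate 5). Leaving out 1 library gave 5 PDGF genes called between EVP and D each time, 1 to 2 between EVP and TA (1 without EVP replicate 2 or 4 or TA replicate 3) and 5 to 7 between TA and D. Between EVP and TA, 0 passed in limma without replicate 1 of each population (3 at an unadjusted p under 0.05). With only replicates 4 and 5, an alternative added after seeing the data, 1, 0 and 1 passed in EVP against D, EVP against TA and TA against D, with fewer samples (0 at an unadjusted p under 0.05 in EVP against TA in limma). The genes that passed there were *Pdgfra* against D both times (adjusted p = 0.0245 and 0.0430 in limma). Over all genes, calls between EVP and TA moved from 893 to 1980 in DESeq2, 541 with the background subtracted, 104 without replicate 1 of each population, and 429, 472 and 560 without EVP replicate 2, EVP replicate 3 and TA replicate 3. Calls between EVP and D moved from 4859 to 7609 with array weights, and between TA and D from 3199 to 5054 with array weights, 1728 with the background subtracted and 2117 with quantile normalization. With only replicates 4 and 5 the calls over all genes were 2064, 45 and 846. The median log2 fold change of all genes between EVP and D was 0.46 in limma, 0.36 with equal totals, 0.18 in edgeR, 1.02 in DESeq2, -0.05 with quantile normalization and 0.0021 with the background subtracted, and the PDGF genes called there kept their direction in each. With only replicates 4 and 5, the counts for proteases, binding genes and signalling genes were 2, 2 and 4 in EVP against D and 1, 2 and 1 in TA against D. The causes were not tested.

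The sources used here do not say that replicate numbers mark an animal or batch. Of 15 pairs with the same number, 11 had a correlation of deviations over 0.1 (range -0.136 to 0.689), and 12 of 15 libraries correlated best with one of their own number, a hint of a shared source from the data. Not every pair passed 0.1. The highest values were those of EVP replicate 1 with D replicate 1 (0.689) and with TA replicate 1 (0.603). Replicate 1 of EVP, TA and D had 10.6, 8.69 and 8.50% of its reads on the single gene *Gm10800*. Every other library had at most 0.701%. The part of this gene and of the olfactory background in these correlations was not tested. The main comparisons have no block because the study names no covariate and does not say that replicate numbers pair the animals. With the replicate number as a block, *Pdgfb* between TA and D had a log2 fold change of -2.62 and an adjusted p of 0.0555 in limma, and no other PDGF gene changed its call. A floor of 3 reads corresponds to 1.81 to 10.5 normalized counts, which limits the D values of *Pdgfra*, *Pdgfc* and *Pdgfrl* and the EVP values of *Pdgfb*.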

Other observations

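Platelets store PDGF, and leukocytes can also express it, so their markers are given beside the ligands. The 6 megakaryocyte and platelet markers summed to 449 to 682 normalized counts in EVP, 766 to 2633 in TA and 525 to 840 in D. Of these 6, 2 passed as higher in TA than in EVP (1.94% of all genes). Between EVP and D, 2 passed as higher in D (7.46%), and between TA and D, 1 passed as higher in TA (8.21%). The 8 leukocyte markers summed to 1973 to 9839 in EVP, 6146 to 35564 in TA and 2916 to 9288 in D. Of these 8, 3 passed as higher in TA than in EVP (1.94% of all genes). Between TA and D, 3 passed as higher in TA (8.21%), and between EVP and D, 1 passed as higher in EVP (11.6%). The 6 melanoma markers summed to 29156 to 66912 in EVP, 68700 to 175253 in TA and 18070 to 47750 in D, although the sort took GFP+ cells. All 6 passed as higher in TA than in D (8.21% of all genes), and 3 as higher in TA than in EVP (1.94%). The median of each of these 3 sums was highest in TA, as was the mean of *Pdgfa* (605 normalized counts), while *Pdgfb* had its highest mean in D and *Pdgfc* in EVP, and *Pdgfd* had its lowest mean in TA. Their part in the levels of the PDGF genes was not tested.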
